A study of Mus musculus with 4 samples.

Results

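Tmem176a and Tmem176b are a pair of neighbouring, related genes that rose together when PW1 was silenced in adult mouse mesoangioblasts (AdmMABs). Every row of the deposited array table whose annotation gave exactly 1 gene symbol equal to Tmem176a or Tmem176b was taken. This rule found 1 probe set for each gene, that is 2 genes of 19938, and 0 further rows named either gene beside others. The pair was chosen from the measured difference between shPW1 and Ctl arrays, in which Tmem176b stood out. That difference is therefore described for both genes without a test.

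AdmMABs are progenitors from vessel walls with the capacity to form muscle, here a polyclonal population from the tibialis anterior of adult male C57/BL6 mice. All cells had been transduced with a lentiviral vector and were growing when RNA was taken. Ctl cells carried a scrambled control short hairpin RNA (shCtrl), and shPW1 cells carried a single short hairpin RNA against PW1, the zinc-finger protein encoded by Peg3. Each group had 2 RNA extractions of a single transduced population, each hybridized to its own Affymetrix Mouse Gene 1.0 ST array, so the spread between replicates may be technical. The methods describe the PW1 hairpin in the vector pLV-H1 and a control hairpin in pLKO.1, without stating which of them the arrayed Ctl cells received; a difference of vector, if any, and the loss of PW1 cannot be told apart. In such bulk samples, more cells expressing a gene and more RNA of it per cell cannot be told apart either.

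TMEM176A and TMEM176B are small proteins that cross the membrane several times and are related to the MS4A family, whose best known member is the B cell antigen CD20. They sit in intracellular membranes of the endosomal and lysosomal system, where TMEM176B has been described as a cation channel. The pair is best known from dendritic cells, macrophages and lymphoid cells of the type 17 response. TMEM176B was first noticed in tolerated grafts and has been described as a brake on the inflammasome.

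The genes lie head to head on chromosome 6, Tmem176a on the plus strand and Tmem176b on the minus strand. RefSeq (GRCm38.p6) gave 2 promoter windows for Tmem176a and 3 for Tmem176b, each running from 250 bases before a start site to 50 bases from it on. The nearest start sites of the pair were 109 bases apart, and their 300-base windows shared 208 bases. Of 16540 plus-strand windows in the table, 703 (4.25%) had a minus-strand start site within that distance upstream. The windows of these nearest start sites are printed 5′ to 3′ on the strand of each gene, because the pair shares this stretch and changed in the same direction. Capitals mark a match to the NF-kappaB motif, searched on both strands.
Tmem176a, chr6:48841233-48841532, plus strand: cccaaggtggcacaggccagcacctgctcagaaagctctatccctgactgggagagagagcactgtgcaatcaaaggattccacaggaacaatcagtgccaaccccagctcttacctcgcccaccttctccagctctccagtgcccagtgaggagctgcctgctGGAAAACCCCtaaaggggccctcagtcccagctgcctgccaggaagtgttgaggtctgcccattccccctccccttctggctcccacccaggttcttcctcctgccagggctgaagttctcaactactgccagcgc
Tmem176b, chr6:48841325-48841624, minus strand: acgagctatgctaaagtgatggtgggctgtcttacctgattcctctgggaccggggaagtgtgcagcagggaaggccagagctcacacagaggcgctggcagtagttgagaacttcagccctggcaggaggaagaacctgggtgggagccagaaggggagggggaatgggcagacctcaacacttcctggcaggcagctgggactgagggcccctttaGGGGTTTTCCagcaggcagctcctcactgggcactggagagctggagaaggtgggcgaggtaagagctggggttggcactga

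Both printed windows held a single NF-kappaB motif, the same 10 bases read from opposite strands, and the other 3 windows of the pair held 0. It lay 77 to 86 bases before the Tmem176a start and 23 to 32 bases before the Tmem176b start. A match to this motif occurred in 2776 of 32817 promoter windows of the same length (8.46%). The motif of PW1 given by the study, AGTNNCNNNTGGCT, had 0 matches in the 5 windows of the pair and occurred in 0.485% of all windows. No match says only that these letters are absent from the windows, and a match is not a measured binding site. The windows of the pair had a GC content of 56.7% to 60.3% and held 1 to 5 CpG, against medians of 52.7% and 7 CpG over all windows.

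**Figure D1:**
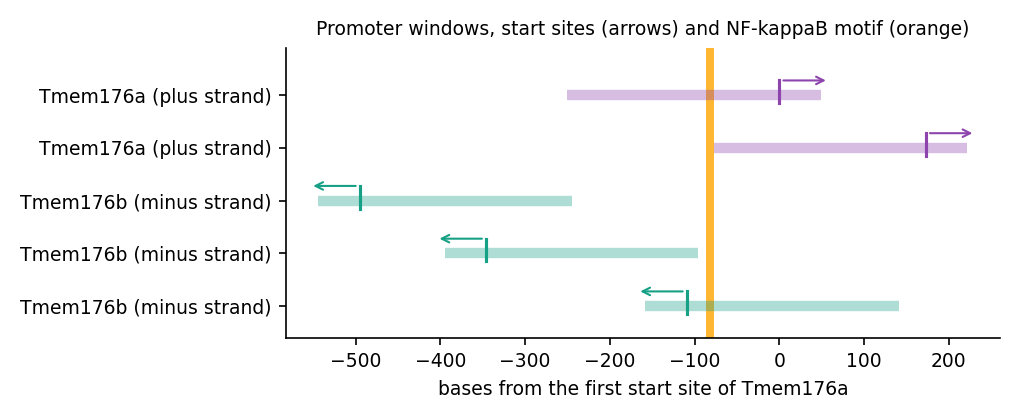
Promoter windows (bars), start sites and direction of transcription (arrows) of Tmem176a (purple) and Tmem176b (green), by distance in bases from the first Tmem176a start site. The orange band is the NF-kappaB motif at -86 to -77, between the start sites that lie 109 bases apart.

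Peg3, the targeted gene, measured 8.67 and 8.70 (log2 expression) on the Ctl arrays against 6.22 and 6.47 on the shPW1 arrays. Both shPW1 arrays lay below both Ctl arrays, and the change of -2.34 on the log2 scale passed the test of limma (adjusted p = 0.00428). With any 1 of the 4 arrays left out, this change lay between -2.47 and -2.21 and no longer passed the test. The arrays themselves were alike, with medians of 6.0 to 6.09 over the 21789 probe sets tested.

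Tmem176b measured 5.79 and 5.39 (log2 expression) on the Ctl arrays against 8.70 and 8.66 on the shPW1 arrays. The groups did not overlap, and the shPW1 arrays stood close together while the Ctl arrays were spread. The Ctl mean was 5.59 ± 0.29 (SD, n = 2) and the shPW1 mean 8.68 ± 0.03 (SD, n = 2). The difference was 3.09 on the log2 scale, 8.5-fold, and the 4 pairs of a shPW1 and a Ctl array gave 2.87 to 3.31. This was the second largest rise of the 21789 probe sets tested, also when ranked by the smallest of the 4 pairs.

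Tmem176a measured 5.24 and 5.47 (log2 expression) on the Ctl arrays against 6.96 and 7.20 on the shPW1 arrays. Here too both shPW1 arrays lay above both Ctl arrays, with equal spread in the groups. The Ctl mean was 5.36 ± 0.17 (SD, n = 2) and the shPW1 mean 7.08 ± 0.17 (SD, n = 2). The difference was 1.73 on the log2 scale, 3.31-fold, and the 4 pairs gave 1.49 to 1.96. It ranked 13 among all rises, and 18 by the smallest pair.

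Both members thus rose in both shPW1 arrays, where 27.5% of all probe sets tested had both shPW1 arrays above both Ctl arrays. Since the pair was chosen from this contrast, nothing is read from that share. Only 23 probe sets had a log2 difference over 1.5, and 2 had one over 3, Tmem176b included. The 5th and 95th percentiles of all differences were -0.36 and 0.36.

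**Figure D2:**
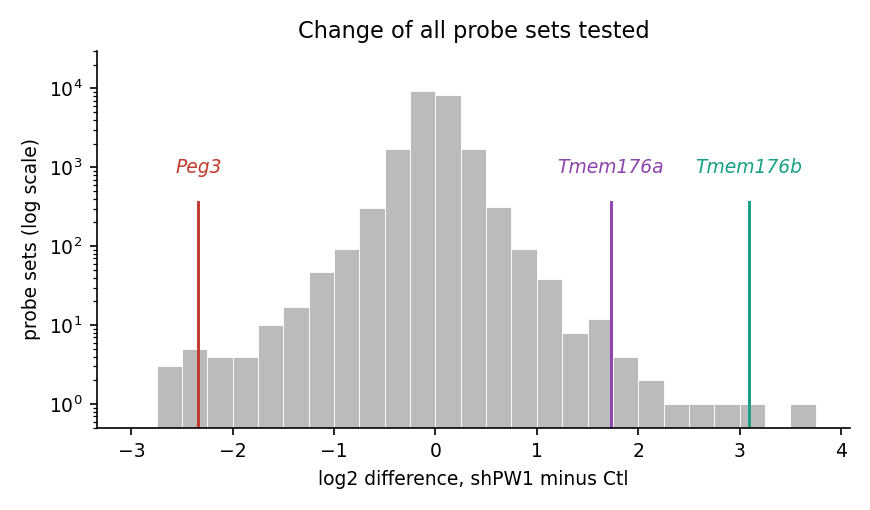
Number of probe sets (log scale) by log2 difference of shPW1 minus Ctl, for the 21789 probe sets tested. The lines mark Tmem176a at 1.73 and Tmem176b at 3.09 in the upper tail and Peg3 at -2.34 in the lower tail.

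The replicate gaps were not small for these genes. The Ctl arrays of Tmem176b differed by 0.41, a wider gap than in 98% of all probe sets, whereas its shPW1 arrays differed by 0.04. The arrays of Tmem176a differed by 0.23 in each group, wider than 88.8% of probe sets in Ctl and 85.7% in shPW1. The median gap over all probe sets was 0.08 in Ctl and 0.09 in shPW1. Within Ctl the genes went in opposite directions, since the array with the higher Tmem176b had the lower Tmem176a.

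The rise of Tmem176b was larger than that of Tmem176a. Levels of different probe sets cannot be set against each other, but their difference can be followed from array to array. Tmem176b minus Tmem176a was 0.56 and -0.08 on the Ctl arrays against 1.73 and 1.46 on the shPW1 arrays. The shPW1 arrays lay above both Ctl arrays by 1.36 on average, 2.57-fold. The 4 pairs, which share arrays, ran from 0.91 to 1.82. Neither the size nor the side of this gap was tested.

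Both genes were dim in Ctl. No detection call was available, so 1035 probe sets of olfactory receptor genes served as a reference for dim signal. Whether some of them are expressed in these cells was not tested. Their 95th percentile was 4.94 to 5.0 on the 4 arrays. In Ctl, Tmem176a lay 0.26 and 0.48 above it and Tmem176b 0.82 and 0.39 above it. In shPW1, Tmem176a lay 2.02 and 2.26 above it and Tmem176b 3.75 and 3.72. Against all probe sets tested, the shPW1 arrays placed Tmem176b at percentiles 80.4 and 79.6 of brightness, from 46.6 and 39.9 in Ctl, and Tmem176a at 59.7 and 62.1, from 37.8 and 41.3. In Ctl, 97.4% to 99% of the olfactory probe sets were dimmer than the members, and the highest reached 7.35 and 7.54. In shPW1 the highest olfactory probe set, at 7.23 and 7.21, was still brighter than Tmem176a but not than Tmem176b. Whether the dim Ctl signal of the pair is expression was not tested, and the fold changes depend on that level.

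**Figure D3:**
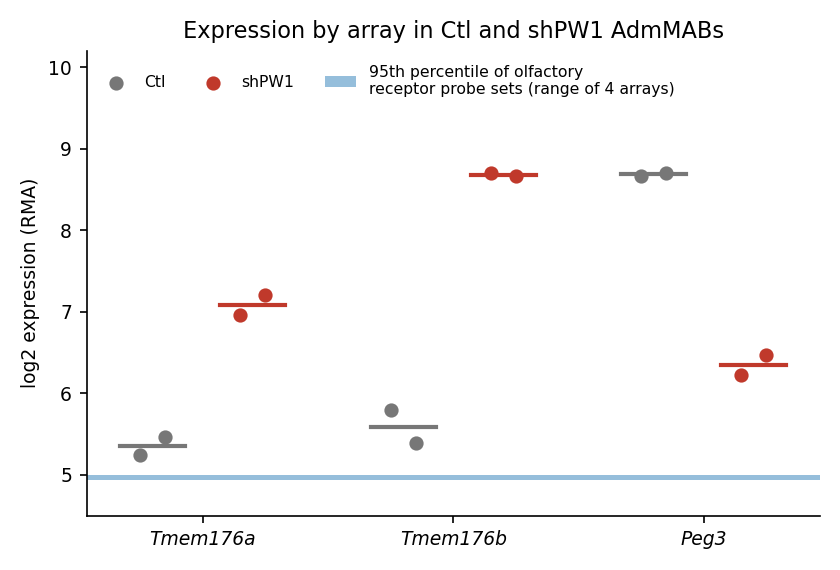
Log2 expression (vertical axis) of Tmem176a, Tmem176b and Peg3 in each Ctl (grey) and shPW1 (red) array, with short lines for group means (n = 2). The blue band is the range over arrays of the 95th percentile of olfactory receptor probe sets, 4.94 to 5.0; the Ctl points of both Tmem176 genes lie within 0.82 of it and the shPW1 points at least 2.02 above it.

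The gene table put 63 other genes within 500 kb on chromosome 6, of which 28 were measured, and 0 of these were called by limma at an adjusted p under 0.05. At an unadjusted p under 0.05, 2 were higher (Repin1 and Ccdc126) and 2 were lower (Krba1 and Lrrc61), and the analysis of variance of the methods at its own thresholds called Krba1 alone. Krba1 and Lrrc61 were called lower with dim probe sets left out, and with a trended robust prior together with Repin1, which was higher. Over all probe sets tested, 4.93% were called higher and 4.17% lower. With limma at an unadjusted p under 0.05, 3079 of the 21789 were higher and 2953 were lower. Counts among the neighbours did not exceed these shares, which are also the background for the lists below. The median log2 fold change of the neighbours was 0.00, against -0.01 over all probe sets, with a range from -0.54 to 0.42.

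On the Tmem176b side lie the Gimap genes, which encode GTPases known from lymphocytes. All 8 were measured, with log2 fold changes from -0.24 to 0.42, and 0 of them were called or reached an unadjusted p under 0.05, while the analysis of variance called 0 as well. The nearest, Gimap3, had 2.71 and 2.90 in Ctl and 3.02 and 2.83 in shPW1, so its arrays overlapped (difference 0.12, limma adjusted p = 0.506). Gimap5 (0.03) and Gimap1 (0.05) followed. Of the 8, 6 stayed under the olfactory reference on all 4 arrays and 0 exceeded it on all 4, so a change of dim signal there may not be visible. On the Tmem176a side, the predicted gene Gm7932 had 6.30 and 6.29 in Ctl and 6.37 and 6.28 in shPW1 (difference 0.03, limma adjusted p = 0.815). It was followed by Aoc1, the gene of diamine oxidase (0.14), and the related Doxl1 (-0.05). Gm7932 exceeded the olfactory reference on all 4 arrays, and Aoc1 and Doxl1 on none.

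**Figure D4:**
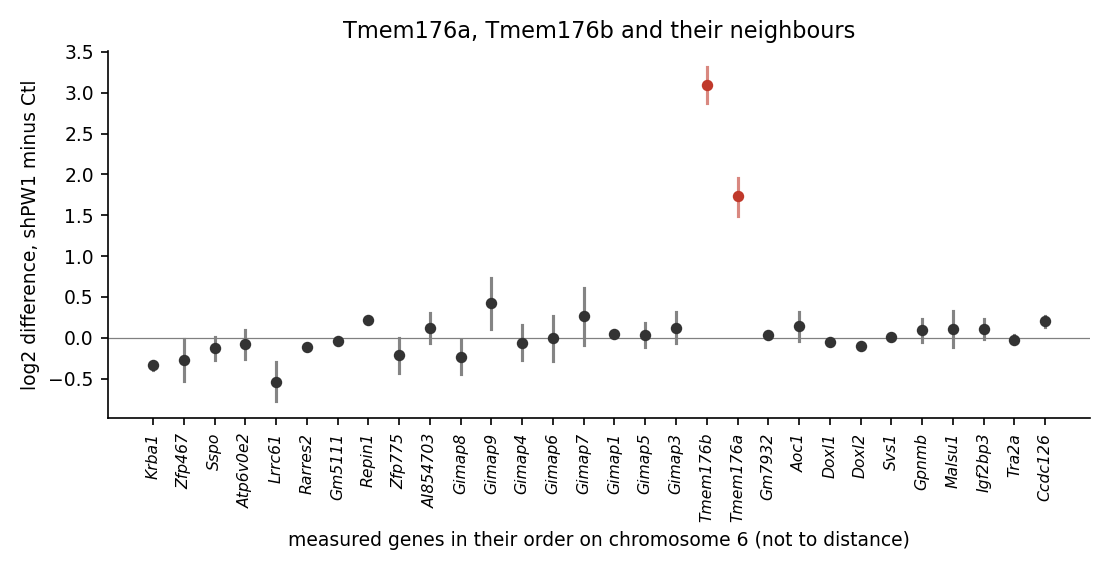
Log2 difference of shPW1 minus Ctl (vertical axis) for the measured genes within 500 kb of the pair, in their order on chromosome 6. Points are differences of group means, and vertical lines span the 4 pairs of a shPW1 and a Ctl array; Tmem176b (3.09) and Tmem176a (1.73) are in red and all others lie between -0.54 and 0.42.

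The promoter windows put every Tmem176b start site on the minus strand, at lower positions on the chromosome than the first Tmem176a start site. Probe sequences were not used here, and signal of either gene in the probe set of the other was not tested. As the deposited values are summaries per probe set, single probes or isoforms were not compared.

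The MS4A genes are the wider family of the pair. Of 17 measured members, 0 were called by limma, against 4.93% higher and 4.17% lower over all probe sets. In a list this short, 0 calls says little about the family. The median log2 fold change of the 17 was 0.03. At an unadjusted p under 0.05 Ms4a4d alone was higher, and the analysis of variance called 0. Ms4a4d had 2.68 and 2.98 in Ctl and 3.55 and 4.02 in shPW1, a log2 fold change of 0.96 (adjusted p = 0.0506 from limma), at values under the olfactory reference on all 4 arrays. It was called with array medians subtracted, with a trended robust prior and with the replicate number as a block. Ms4a1, which encodes CD20, had a log2 fold change of 0.08. In all, 14 of the 17 stayed under the reference on every array.

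Of 16 measured genes of the inflammasome and its products, limma called 3 higher and 1 lower, against 4.93% higher and 4.17% lower over all probe sets, and 12 were not called. The higher members were Casp4, the sensor of intracellular lipopolysaccharide, Casp1, the protease that matures interleukin-1, and Aim2, a sensor of cytosolic DNA. Casp4 went from 5.26 and 5.20 in Ctl to 6.15 and 6.17 in shPW1 (difference 0.93, limma adjusted p = 0.00681). Casp1 rose by 0.73 (adjusted p = 0.00999) but stayed under the olfactory reference on all 4 arrays, and Aim2 rose by 0.60 (adjusted p = 0.0225). Nek7, a kinase that activates NLRP3, fell by 0.41 on the log2 scale (adjusted p = 0.0306). Nlrp3 itself had a log2 fold change of 0.03 and was under the reference in every array. At an unadjusted p under 0.05 from limma, 3 of the 16 were higher and 3 were lower, against 3079 and 2953 of all 21789 probe sets. The analysis of variance called 3 higher and 1 lower, and 5 of the 16 were called with a trended robust prior. The median of the list was -0.05.

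Of 20 measured ion channels and exchangers of endosomes and lysosomes, limma called 1 higher and 3 lower, against 4.93% and 4.17% of all probe sets, and 16 were not called. Clcn3, a chloride and proton exchanger, rose by 0.51 (adjusted p = 0.0236 from limma). Tmem175, a lysosomal potassium and proton channel, fell by 0.57 (adjusted p = 0.0147), the sodium and proton exchanger Slc9a9 fell by 0.41 (adjusted p = 0.0332) and Clcn6, of late endosomes, fell by 0.39 (adjusted p = 0.0283). The changes of these 4 genes were no larger than 0.57 on the log2 scale, against 1.73 and 3.09 for the pair. At an unadjusted p under 0.05 from limma, 5 of the 20 were higher and 8 were lower, against 3079 and 2953 of all 21789 probe sets. The analysis of variance called 1 higher and 3 lower, and 9 of the 20 were called with a trended robust prior. The median of the list was -0.03.

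Of 13 measured genes of type 17 cells, 0 were higher and 1 was lower by limma, against 4.93% and 4.17% of all probe sets. The lower member was Ahr, which encodes the aryl hydrocarbon receptor and fell by 0.37 (adjusted p = 0.0333 from limma). At an unadjusted p under 0.05 Maf was lower beside Ahr (and passed once dim probe sets were removed) and 0 were higher, and the analysis of variance called 1 lower and 0 higher. The median of the list was -0.04.

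Of 23 measured leukocyte and macrophage markers, 0 were called by limma, against 4.93% higher and 4.17% lower over all probe sets. So short a list could hold 0 calls at those shares. The median log2 fold change was -0.06. At an unadjusted p under 0.05, 0 were higher and 2 were lower (Cd53 with a log2 fold change of -0.85 and adjusted p = 0.0597 from limma, and Cd3e), and the analysis of variance called 0. Cd53 was called lower with dim probe sets left out, with a trended robust prior and with a crossed replicate block. The summed linear signal of the 23 markers was 693 and 700 in Ctl and 673 and 631 in shPW1. The defining markers Ptprc (CD45), Cd52 and Csf1r were under the olfactory reference on all 4 arrays, and so were 14 of the 23. Another 7 of the 23 exceeded it on all 4 arrays. Ptprc had 3.62 and 3.73 in Ctl and 4.23 and 3.66 in shPW1.

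Of 16 measured dendritic cell genes, 0 were called by limma, against 4.93% higher and 4.17% lower over all probe sets, with a median of -0.05. At an unadjusted p under 0.05 Cd24a was higher and Batf3 was lower, and the analysis of variance called Batf3 alone. Batf3 passed as lower once dim probe sets were removed, and Cd24a higher with a trended robust prior. Of the 16, 9 stayed under the reference on every array and 7 exceeded it on all 4. Their summed linear signal, 2492 and 2396 in Ctl and 2621 and 2557 in shPW1, came mostly from Fscn1 (10.78 and 10.72, then 10.84 and 10.84) and Cd24a, which other cell types also express. Itgax, which encodes CD11c, was under the reference on all 4 arrays, and Flt3 had 5.20 and 5.25 in Ctl and 5.22 and 5.11 in shPW1. Of 12 measured genes of MHC class II presentation, 0 were called by limma, with a median of 0.03. Both lists are short, so 0 calls says little beside the shares over all probe sets. At an unadjusted p under 0.05 Ctsl was the only one higher, 0 were lower, and the analysis of variance called 0. Ctsl passed once dim probe sets were removed and with a trended robust prior. Cd74, the invariant chain, had a log2 fold change of 0.09 and was under the reference on all 4 arrays.

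Most markers of the labelled cell type were brighter than the olfactory reference, which by itself does not show expression. Of 13 measured markers of vessel-associated and mesenchymal progenitors, 12 exceeded this reference on all 4 arrays, and the pericyte marker Rgs5 on none. Of these 13, limma called 1 higher and 6 lower, against 4.93% and 4.17% of all probe sets, and 6 were not called, with a median log2 fold change of -0.17. Anpep (CD13) fell by 1.06 (adjusted p = 0.00576 from limma), Cspg4 (NG2) by 0.66 (adjusted p = 0.0174), Des (desmin) by 0.55 (adjusted p = 0.0174) and Pdgfrb by 0.45 (adjusted p = 0.0225). These pericyte and mesenchymal markers thus moved opposite to the pair, in the same arrays. The higher member was the hyaluronan receptor Cd44 (0.35). Of 10 measured endothelial markers, 0 were called by limma, 0 had an unadjusted p under 0.05, the analysis of variance called 0, and the median was -0.08. Here 5 of the 10 exceeded the olfactory reference on all 4 arrays and 4 on none.

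The calls in these lists depend on the number of arrays. They were also uneven, with 7 of 13 progenitor markers, 4 of 16 inflammasome genes and 4 of 20 endosomal and lysosomal channels and exchangers called. In all, 16 of the 168 genes of the lists and the neighbourhood were called in either direction. Since 4.93% of all probe sets tested were called higher and 4.17% lower, only the pooled share was near that of all probe sets. With any 1 of the 4 arrays left out, 0 were called. With every row of the table tested, 1 was called (Anpep).

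**Figure D5:**
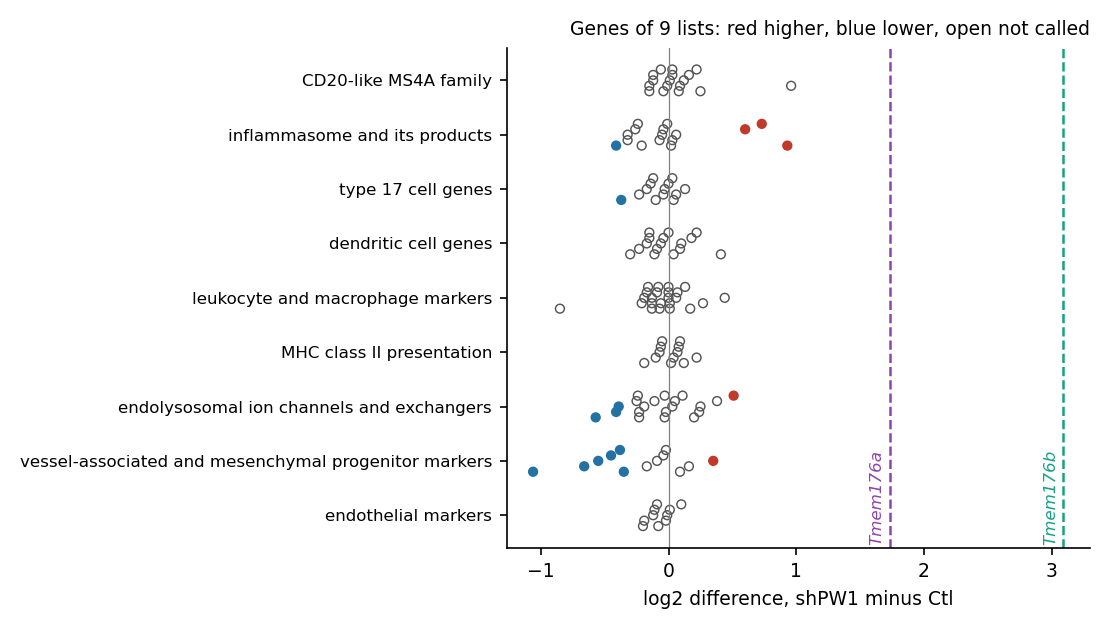
Log2 difference of shPW1 minus Ctl (horizontal axis) for each measured gene of 9 lists (rows), red where called higher, blue where called lower and open where not called. The dashed lines mark Tmem176a (1.73) and Tmem176b (3.09), and the list genes lie between -1.06 and 0.96, all below both lines.

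The genes whose values followed each member most closely were found by Euclidean distance over the 4 arrays, after subtracting from each probe set its own mean. This is a description of 2 against 2 arrays, in which most of the distance comes from the size of the change. Nearest to Tmem176b were the neutrophil chemokine genes Cxcl5 (distance 0.33) and Cxcl1 (0.42), U90926 (0.48), the monocyte chemokine gene Ccl2 (0.77) and the cytokine gene Il6 (1.10). Cxcl5 had 9.01 and 8.93 in Ctl and 11.82 and 11.83 in shPW1, a log2 difference of 2.86, and U90926 one of 3.54. Il6 was dim, with 2.81 and 2.76 in Ctl and 4.70 and 4.96 in shPW1, against an olfactory reference of 4.94 to 5.0. Few genes changed as much as Tmem176b, so the distances grow quickly along this order.

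Nearest to Tmem176a were Lcn2, which encodes a lipocalin that binds bacterial siderophores (distance 0.20), the mast cell and basophil protease gene Mcpt8 (0.24), Zc3h12a, which encodes an RNase that degrades cytokine transcripts (0.24), the potassium channel subunit gene Kcnmb1 (0.26) and the protease inhibitor gene Slpi (0.27). Their log2 differences lay between 1.57 and 1.73. Lcn2 had 4.63 in both Ctl arrays and 6.30 and 6.38 in shPW1, and Mcpt8 had 4.60 and 4.53 in Ctl and 6.15 and 6.27 in shPW1. Both genes were under the olfactory reference in Ctl and above it in shPW1. The members themselves were 1.45 apart, with 15 probe sets closer to Tmem176b and 1525 closer to Tmem176a than its partner. The pair thus shared its direction but not its size, and each had nearer companions elsewhere in the table.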

How the data were processed

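RNA of 2 Ctl and 2 shPW1 extractions was hybridized to Affymetrix Mouse Gene 1.0 ST arrays. The log2 values deposited by the authors are RMA summaries per probe set from Partek Genomics Suite, version 6.4 according to the submitters' processing notes, so background correction, normalization and summarization were done before deposit. Of 35556 rows, the 21789 with exactly 1 gene symbol entered limma (3.58.1, under R 4.3.3; functions lmFit and eBayes). Two-sided p-values received a Benjamini-Hochberg adjustment over all of them, and calls were made under 0.05. The test was checked on simulated data. A gene with more than 1 probe set was represented by its brightest. Precision is limited by the number of arrays, and no depth or detection call was used.

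The members, the 9 gene lists (150 genes, 140 measured), the motifs and the tests were chosen with earlier results of these data known. The genes named are the members, Peg3, up to 4 called genes of each list with the largest change, the 3 nearest measured neighbours on each side, the 5 nearest genes by distance and a few defining markers. Ms4a4d, Ms4a1, Cd53, Cd3e, Cd24a, Fscn1, Batf3, Ctsl, Maf, Krba1, Lrrc61, Repin1, Ccdc126, Cd44, Acta2 and Rgs5 were named after their values were seen. A gene and a motif considered are not reported here. Neighbours came from a GRCm38.p6 gene table and promoter sequences from RefSeq. As alternatives, the dimmest 25% of probe sets were removed, all rows were tested, values were quantile normalized again or centred on array medians, eBayes was run with a trended robust prior, the methods' analysis of variance was applied (p under 0.05, fold over 1.2), the replicate number was added as a block, and each array was omitted in turn.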

Additional observations from a re-analysis of the deposited data

How the results depend on the processing

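The log2 differences of both genes kept their direction under every alternative that can change them. With 2 arrays a group, omitting an array cannot move a difference by more than the pooled replicate SD, so the small size of these shifts is no sign of stability. Tmem176a lay between 1.61 (without Ctl replicate 1 or shPW1 replicate 2) and 1.84 (without Ctl replicate 2 or shPW1 replicate 1), and Tmem176b from 2.88 when Ctl replicate 2 was omitted to 3.29 when Ctl replicate 1 was. Their difference, 1.36, ran from 1.04 to 1.68 with the same omissions. A second quantile normalization gave 1.76, 3.09 and 1.33, subtraction of array medians 1.79, 3.15 and 1.36, and the replicate block, which leaves a balanced difference as it is, 1.73, 3.09 and 1.36.

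The counts of calls moved more. Against 1075 higher and 908 lower probe sets, and 16 called genes of the lists and the neighbourhood, a filter on dim probe sets gave 1735 and 1521, all rows 36 and 50 with 1 listed gene, subtraction of medians 1637 and 698 (70.1% higher against 54.2%), and a trended robust prior 2735 and 1978 with 30. The analysis of variance of the methods gave 1383 and 1165 at its own thresholds, and 1 and 1 with 0 after Benjamini-Hochberg adjustment. The replicate block gave 256 and 258 with 5. Same-numbered arrays deviated with a correlation of -0.105, which gives no sign of pairing but cannot exclude it. The crossed pairing, chosen after seeing the data, gave 213 and 224 with 5. With any 1 of the 4 arrays left out, limma called 0 and 0 with 0, with 1899 to 2706 higher and 1891 to 2673 lower at an unadjusted p under 0.05. The cause of these shifts was not tested. The dim signal in Ctl limits how exactly either rise can be sized.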
